A study of Mus musculus with 6 samples.

Results

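The 37 genes described here code for the enzymes and carriers that take glucose through glycolysis to pyruvate, exchange pyruvate with lactate, bring pyruvate into the mitochondrion and oxidise it in the citric acid cycle. They were taken by name from a table of 24407 genes, and all 37 were found: 15 of glycolysis, 3 of lactate formation and export, 6 of pyruvate entry and 13 of the citric acid cycle. Their messenger RNA was counted in pancreatic islets, small clusters of hormone-secreting cells, from C57BL/6 mice of 2 genotypes. The wild-type mice (WT) carried unaltered Lmna, and the lmna LCS mice (column heading KIKI) express lamin C as the only product of that gene, without lamin A. Mice of both genotypes were aged 70 weeks and ate regular chow. Each genotype had 3 libraries, and islets of 3 mice were pooled for each library, so a value is the average of a pool and says nothing about single animals. Because lamin A and lamin C share 1 row of counts, Lmna does not check the genotype labels. The sources used here do not give sex, litter or the day of islet isolation.

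Beta cells secrete insulin when glucose is broken down fast enough to raise ATP, and they are known for passing nearly all pyruvate into mitochondria and for keeping lactate dehydrogenase A (Ldha), the monocarboxylate transporter MCT1 (Slc16a1) and the low-Km hexokinase Hk1 at low levels. The question put to the data was whether any gene of this route differed between LCS and WT islets. In whole islets, fewer cells of a type and less RNA per cell cannot be told apart.

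The libraries held 26123654 to 68036676 counts. Rows that carry ribosomal RNA (Rn45s, Lars2 and Mir6236) took 53.4% ± 0.999 (SD, n = 3) of the counts in LCS and 12.1% ± 5.73 in WT, and their part in the results below was not tested, except that leaving them out also called no member (2.23% of all genes in either direction). The 37 genes held 0.627% ± 0.0258 of the remaining counts in LCS and 0.577% ± 0.0709 in WT. WT replicate 1 stood apart from WT replicates 2 and 3: it was the highest WT library for 24 of 36 tested members, against 42.0% of all 14539 genes tested. Results are therefore given with and without it. For a member in which it was the highest WT library, leaving it out raises LCS minus WT. Calls made without it are therefore no separate support for a difference. Islet identity was clear from the summed level of 11 beta cell markers, 148227 to 263967 CPM (counts scaled by library size and TMM factor). Markers of some other cells moved with genotype, where 2.06% of all genes were called higher and 0.144% lower in LCS (edgeR adjusted p under 0.05). Of 12 tested acinar markers 11 rose in LCS, with a summed level of 508 to 865 CPM in LCS and 174 to 265 CPM in WT. Delta and PP cell markers had 2 of 5 members called higher (Rbp4 and Ppy), with sums of 4990 to 8312 CPM against 1145 to 2805 CPM. Median transcript length was 1248 nt for the acinar and 721 nt for the delta and PP list, against 2908 nt over all genes tested. Protein-coding genes of 500 to 1000 nt and of 1000 to 2000 nt had median log2 fold changes (LCS minus WT) of 0.69 and 0.31. The part of transcript length in these marker values was not tested. The alpha cell list had 1 of 7 called higher and the macrophage list 1 of 8, and no member was called in the duct, beta, endothelial, stellate and fibroblast, lymphocyte, and Schwann and neural lists. Of 8 red blood cell markers 6 had no count in any library, all of them globin genes (Hba-a1, Hba-a2, Hbb-b1, Hbb-b2, Hbb-bs and Hbb-bt). How reads that match several of these were counted is not given, so their level is uncertain. The part of these cells in the values below was not tested.

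None of the 36 tested members differed between the genotypes at an edgeR adjusted p under 0.05, where 2.06% of all genes were called higher and 0.144% lower in LCS. The lowest adjusted p was 0.0769, for Mpc1. At an unadjusted p under 0.05, 11 members were higher and 1 lower in LCS, against 13.3% and 10.8% of all genes, and DESeq2 called 2 higher (Mpc1 and Mpc2) against 6.44% of all genes. The median log2 fold change (LCS minus WT) was 0.20 over the members and 0.01 over all genes. It was positive for 27 members and negative for 9, and 32 members lay within 0.5 of 0. Only 3 members, Mpc2, Mpc1 and Mdh2, reached a 1.5-fold difference in the fit of all 6 libraries. All 3 libraries of LCS lay above all 3 of WT for 9 members (Tpi1, Pkm, Ldha, Mpc1, Mpc2, Pdhb, Idh3g, Suclg1 and Fh1), where 14.6% of all genes did so, and for no member did all lie below, where 12% of all genes did.

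**Figure D1:**
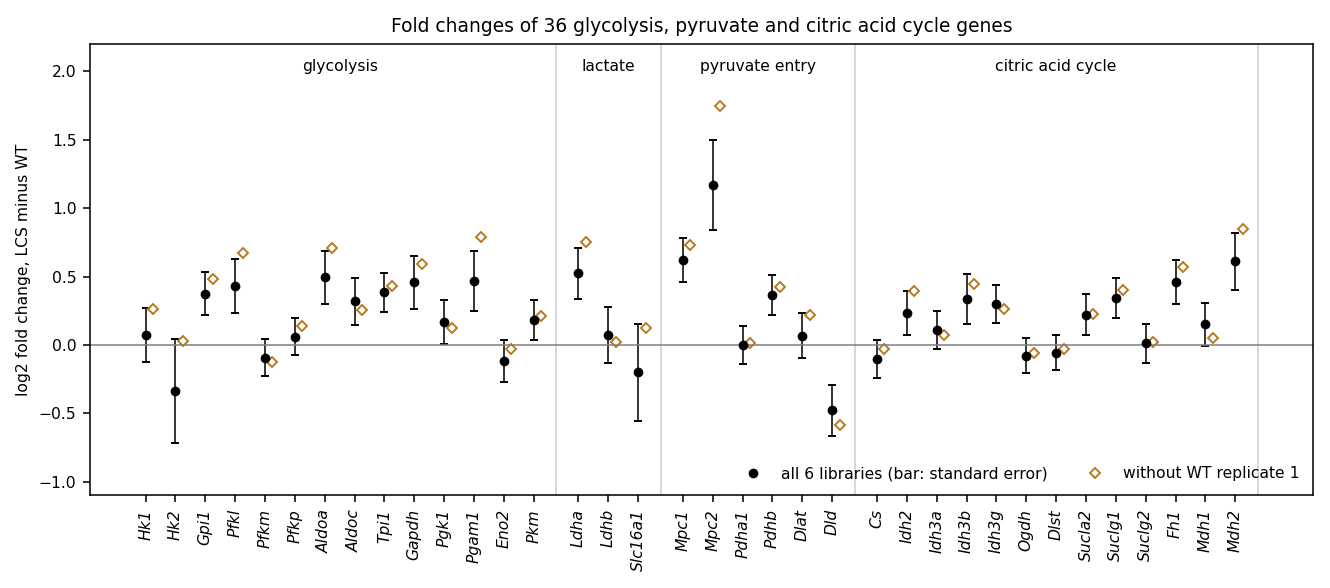
Log2 fold change (LCS minus WT) of the 36 tested members in pathway order, in black with the standard error for all 6 libraries and as open diamonds without WT replicate 1. Mpc2 (1.17) and Mdh2 (0.61) moved to 1.74 and 0.85 without that library, while Pdha1 (0.00) and Suclg2 (0.01) lay nearest to 0 in the fit of all libraries.

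Without WT replicate 1, 8 members were called higher (Pfkl, Aldoa, Pgam1, Ldha, Mpc1, Mpc2, Fh1 and Mdh2) and 1 lower (Dld), where that fit called 12.5% of all genes higher and 7.68% lower. That library was singled out by values of these same genes, so the calls describe its influence only. Leaving out another single library called no member, and 0.601%, 2.05% and 0.554% of all genes without LCS replicates 1, 2 and 3 and 0.768% and 0.971% without WT replicates 2 and 3. Testing without a low-count filter called Mpc2 alone, and 2.95% of all genes higher. With WT replicate 3 as the only WT library, a fit in which that lone sample is assumed to vary like the LCS libraries called 1 member, Mpc2 (log2 fold change 1.84, SE 0.29, edgeR adjusted p = 0.00315), and 5.77% of all genes higher. WT replicates 1 and 2 were set aside there because their sample titles carry numbers distant from the numbers of the remaining 4 libraries. The meaning of these numbers is not given.

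Transcript length moved with the fold changes. The 15 members with transcripts under 2000 nt all had a positive log2 fold change (median 0.38), whereas the 21 longer members had 12 positive values (median 0.06). Protein-coding genes as a whole did the same: the class of 1000 to 2000 nt had a median of 0.31 and that of 2000 to 4000 nt a median of -0.01, where members of these classes had medians of 0.37 and 0.09. Spearman's rho between length and log2 fold change was -0.694 across the 36 members and -0.544 across 13657 protein-coding genes, which share their libraries and are not independent. A length offset brought the members' median to 0.06 and offsets for both length and GC content to 0.08, and neither fit called a member (0.198% and 0.952% of protein-coding genes were called).

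**Figure D2:**
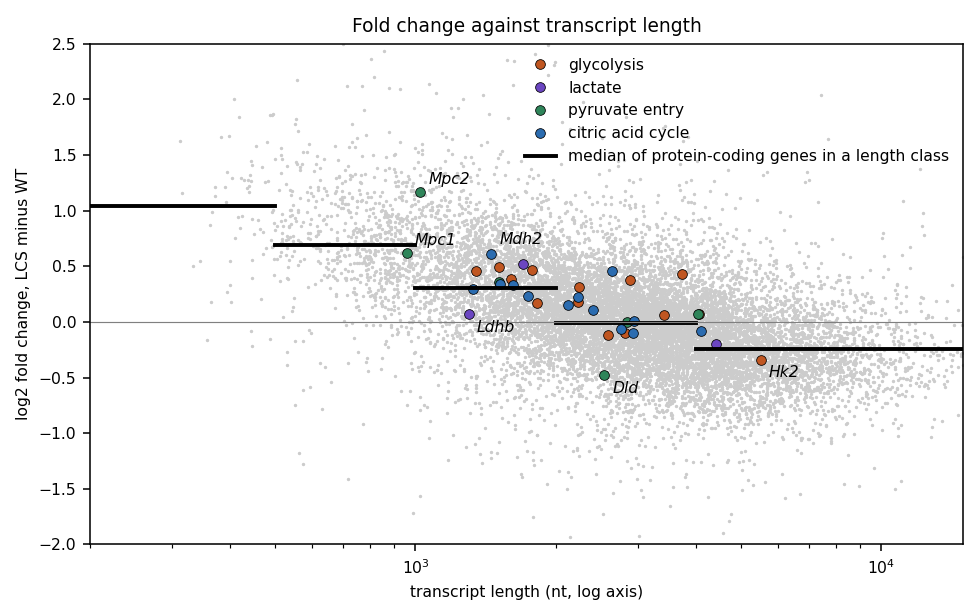
Log2 fold change (LCS minus WT) against transcript length (nt, log axis) for protein-coding genes in grey and members coloured by step, and a black line for the class medians; 68 genes lie beyond the axes. Members under 2000 nt all lie above 0, with Mpc2 (1.17) the highest, and Dld (-0.48) is the lowest member.

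Glycolysis splits glucose into pyruvate. Of its 15 members 14 were tested, and none was called. At an unadjusted p under 0.05, 4 were higher and none lower, against 13.3% and 10.8% of all genes. The median log2 fold change of the 14 was 0.25. Tpi1, triose phosphate isomerase, had 253, 222 and 234 CPM in LCS and 192, 164 and 187 CPM in WT (here and below in the order of replicates 1, 2 and 3). The groups did not overlap, and the log2 fold change of 0.38 (SE 0.14, edgeR adjusted p = 0.144) was 0.10 with the length offset and 0.06 with length and GC offsets. Aldoa, the main aldolase, had 744, 612 and 756 CPM in LCS and 639, 450 and 411 CPM in WT. WT replicate 1 lay above LCS replicate 2 there, and the log2 fold change of 0.49 (SE 0.20, edgeR adjusted p = 0.168) was 0.71 without WT replicate 1 (edgeR adjusted p = 0.0163). It was 0.18 with the length offset (edgeR adjusted p = 0.534) and 0.07 with the length and GC offsets (0.793). Gpi1, glucose-6-phosphate isomerase, had 199, 164 and 209 CPM in LCS and 168, 134 and 139 CPM in WT (log2 fold change 0.38, SE 0.16, edgeR adjusted p = 0.184). The lowest LCS library lay just under WT replicate 1. Gapdh, which is often used as a reference gene, had 341, 239 and 368 CPM in LCS and 270, 197 and 223 CPM in WT. These ranges overlapped, and its log2 fold change was 0.46 (SE 0.20, edgeR adjusted p = 0.191) in the fit of all libraries and 0.59 without WT replicate 1. It was 0.06 with the length offset and -0.03 with the length and GC offsets.

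The other glycolytic members ranged from -0.34 (Hk2) to 0.47 (Pgam1) on the log2 scale. Pfkl, the liver type of phosphofructokinase, was at 0.43, Aldoc at 0.32, Pkm, pyruvate kinase, at 0.18 and Pgk1 at 0.17. Negative values were found for Pfkm (-0.09) and the neuron-specific enolase gene Eno2 (-0.12), beside Hk2. Without WT replicate 1, Pfkl was called at 0.67 (SE 0.17, edgeR adjusted p = 0.0203) and Pgam1, phosphoglycerate mutase, at 0.79 (SE 0.15, edgeR adjusted p = 0.00697). Hk1, which beta cells keep low, had 12.8, 10.5 and 10.02 CPM in LCS and 13.2, 9.06 and 9.46 CPM in WT. Its groups overlapped fully, with a log2 fold change of 0.07 (SE 0.20, edgeR adjusted p = 0.853) that was between -0.03 and 0.26 when single libraries were left out. Eno1, the common enolase, was not tested: it had 1 to 12 counts per library, and Eno1b, its near-identical copy, had 7 to 24. How reads that match both copies were counted is not given, and the part of this in the low counts was not tested, so the level of Eno1 is uncertain. Gapdh, Aldoa, Tpi1, Pgk1, Pgam1 and Ldha have processed pseudogenes, and their levels are uncertain to the extent that reads match these too.

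**Figure D3:**
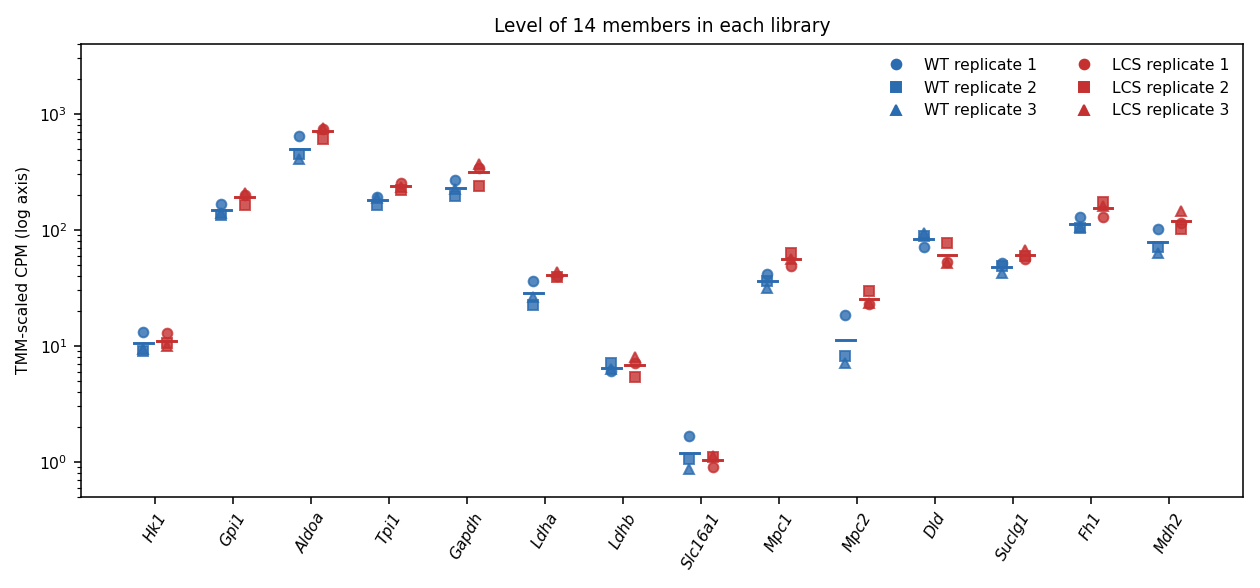
TMM-scaled CPM (log axis) of 14 members per library (blue for WT, red for LCS, symbols for replicates) and the mean of 3 libraries as a bar. The WT circle (replicate 1) is the WT value nearest to the LCS values for Mpc2 (18.5 CPM against 8.09 and 7.05 CPM) and for Ldha (36.5 CPM against 22.4 and 26.3 CPM).

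Levels per transcript length, in CPM per kilobase, spanned more than the differences between genotypes. In WT islets Aldoa was at 331 ± 81.0 (SD, n = 3), Pkm at 269 ± 24.7 and Gapdh at 171 ± 27.3, and these were the 3 highest members in LCS as well, at 466 ± 53.0, 305 ± 12.7 and 235 ± 50.4. In WT the spread of Aldoa overlapped that of Pkm. Ldha was at 16.7 ± 4.28 in WT, close to Pfkl (17.5 ± 4.75) and Cs (18.3 ± 1.52). Hk1 (2.60 ± 0.557), Hk2 (0.403 ± 0.196) and Slc16a1 (0.270 ± 0.0943) were the 3 lowest tested members.

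Isozyme shares, computed from counts per kilobase in each library, are given as a description without a test. Pfkl made up 51.1%, 44.2% and 46.5% of phosphofructokinase counts in LCS and 45.5%, 38.7% and 34.3% in WT. The Pfkl share of WT replicate 1 lay inside the LCS range, while that of the other two WT libraries lay below it. Shares of an enzyme add up to the whole, so a higher Pfkl share lowers those of the others. Pfkm, the muscle type, had means of 21.8% ± 2.16 in LCS and 26.8% ± 4.25 in WT, and Pfkp had 30.9% ± 2.59 and 33.7% ± 1.48. Both overlapped between the genotypes. Aldoa held 98.5% ± 0.0532 and 98.3% ± 0.572 of aldolase counts. Ldha held 81.2%, 85.0% and 80.6% of lactate dehydrogenase counts in LCS and 82.3%, 70.8% and 76.2% in WT. Here too WT replicate 1 lay within the LCS range.

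**Figure D4:**
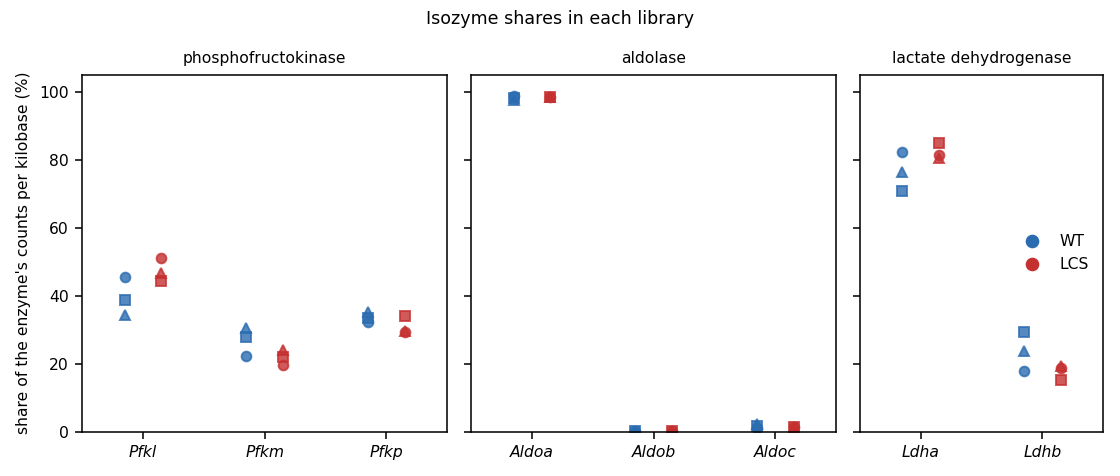
Share (%) of each isozyme in its enzyme's counts per kilobase, per library (blue for WT, red for LCS) with replicates 1 to 3 as circle, square and triangle. The Pfkl (45.5%) and Ldha (82.3%) shares of WT replicate 1 lie within the LCS values, and Aldoa holds nearly all aldolase counts in every library.

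Lactate formation and export rest on Ldha and Ldhb, the subunits of lactate dehydrogenase, and on Slc16a1, which carries lactate and pyruvate across the plasma membrane. None of the 3 was called. Ldha had 39.9, 39.5 and 43.1 CPM in LCS and 36.5, 22.4 and 26.3 CPM in WT. All LCS values were above all WT values, with a log2 fold change of 0.52 (SE 0.19, edgeR adjusted p = 0.139). Without WT replicate 1 it was called at 0.75 (SE 0.15, edgeR adjusted p = 0.00919), and with the length offset it was at 0.28 (edgeR adjusted p = 0.371). Ldhb had 7.06, 5.36 and 7.94 CPM in LCS and 6.03, 7.06 and 6.27 CPM in WT. The groups overlapped, and its log2 fold change of 0.07 (SE 0.20, edgeR adjusted p = 0.857) turned to -0.36 with the length offset and to -0.05 without LCS replicate 3. Slc16a1 had 0.909, 1.10 and 1.12 CPM in LCS and 1.66, 1.06 and 0.862 CPM in WT, from 26 to 80 counts per library. Its log2 fold change of -0.20 (SE 0.35, edgeR adjusted p = 0.754) was 0.12 without WT replicate 1, so no direction can be given for it.

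Pyruvate enters mitochondria through a carrier made of the partners MPC1 and MPC2, and the pyruvate dehydrogenase complex then turns it into acetyl-CoA. Both carrier genes had the smallest p of all members, and neither was called. Mpc1 had 48.6, 63.5 and 55.7 CPM in LCS and 41.8, 36.1 and 31.3 CPM in WT. Mpc2 had 22.8, 29.5 and 23.6 CPM in LCS and 18.5, 8.09 and 7.05 CPM in WT. Every LCS library lay above every WT library for both genes, and WT replicate 1 was the highest WT library each time. The log2 fold changes were 0.62 (SE 0.16) for Mpc1 and 1.17 (SE 0.33) for Mpc2, and the edgeR adjusted p was 0.0769 and 0.0873. When WT replicate 1 was left out both were called, Mpc1 at 0.73 (edgeR adjusted p = 0.0142) and Mpc2 at 1.74 (0.000482), and over all 16 alternatives Mpc1 was called in 2 and Mpc2 in 4. With the length offset Mpc1 was at 0.04 (SE 0.15, edgeR adjusted p = 0.914) and Mpc2 at 0.67 (SE 0.28, 0.288). With length and GC offsets they were at 0.24 (SE 0.14, edgeR adjusted p = 0.404) and 0.67 (SE 0.27, 0.217). Their transcripts, of 958 and 1025 nt, are the 2 shortest of the members.

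The pyruvate dehydrogenase complex is built from E1 (Pdha1, Pdhb), E2 (Dlat) and E3 (Dld), and E3 also serves the oxoglutarate dehydrogenase complex. Their log2 fold changes were 0.00 for Pdha1 (SE 0.14), 0.36 for Pdhb (SE 0.15), 0.07 for Dlat (SE 0.16) and -0.48 for Dld (SE 0.19). For Pdhb, Dlat and Dld the edgeR adjusted p was 0.173, 0.822 and 0.165. Pdhb was at 0.05 with the length offset and 0.16 with length and GC offsets. Genes of one complex thus had values of either sign, and whether they differ from each other was not tested. Dld had 52.3, 76.2 and 51.9 CPM in LCS and 70.6, 87.7 and 93.4 CPM in WT. LCS replicate 2 lay within the WT range and LCS replicates 1 and 3 below it. Dld was the one member lower at an unadjusted p under 0.05, with log2 fold changes of -0.66 to -0.36 when single libraries were left out. It was called without WT replicate 1 (-0.59, SE 0.19, edgeR adjusted p = 0.0491). With the length offset Dld was at -0.52 (SE 0.20, edgeR adjusted p = 0.254), and with length and GC offsets at -0.26 (SE 0.11, 0.233).

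Start-site regions of the carrier genes, whose p-values were the smallest, and of Ldha, whose region held the most matches, are printed to show what sequence lies there. They come from RefSeq (GRCm38.p6, while the counts were made on mm9), run from 250 bases before to 50 bases after an annotated start, and were found for 36 of the 37 genes. Mpc1 and Ldha have further annotated starts, which are not printed. Capitals mark ACGTG and GCGTG on either strand (CACGT and CACGC on the other), the core letters bound by hypoxia-inducible factors, which overlap the E-box CACGTG. The regions are chr17:8283537-8283836, plus strand for Mpc1, chr1:165461010-165461309, plus strand for Mpc2 and chr7:46845554-46845853, plus strand for Ldha.
Mpc1: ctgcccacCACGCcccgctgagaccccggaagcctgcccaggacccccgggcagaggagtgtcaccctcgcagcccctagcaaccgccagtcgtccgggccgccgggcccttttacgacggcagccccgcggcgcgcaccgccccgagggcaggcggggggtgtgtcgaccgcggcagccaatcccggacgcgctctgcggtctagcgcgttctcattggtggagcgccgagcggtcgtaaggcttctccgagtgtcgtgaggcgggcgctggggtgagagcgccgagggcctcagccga
Mpc2: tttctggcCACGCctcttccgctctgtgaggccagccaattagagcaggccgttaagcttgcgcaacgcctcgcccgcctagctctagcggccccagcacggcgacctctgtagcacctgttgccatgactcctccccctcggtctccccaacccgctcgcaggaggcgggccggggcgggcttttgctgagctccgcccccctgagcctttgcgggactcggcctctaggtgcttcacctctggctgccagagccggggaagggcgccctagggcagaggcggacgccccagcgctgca
Ldha: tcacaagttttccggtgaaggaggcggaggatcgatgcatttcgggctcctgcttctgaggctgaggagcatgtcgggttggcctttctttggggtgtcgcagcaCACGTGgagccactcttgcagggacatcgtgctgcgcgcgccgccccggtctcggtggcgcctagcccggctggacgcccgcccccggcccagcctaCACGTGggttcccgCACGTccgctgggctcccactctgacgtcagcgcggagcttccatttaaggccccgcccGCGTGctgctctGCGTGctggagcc
The Ldha region held 7 matches (each CACGTG counts as 2), and those of Mpc1 and Mpc2 held 1 each. Such a match was found in 71.7% of 53 start-site regions of the members and in 43.8% of 32851 regions of all genes. Every searched word holds CG, and the regions of all genes were not matched to the members for base composition or expression. The part of either in this difference was not tested. A match is a description of the letters and not of a bound factor.

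The citric acid cycle oxidises acetyl-CoA, and none of its 13 members was called. At an unadjusted p under 0.05, 3 were higher and none lower, against 13.3% and 10.8% of all genes. The median log2 fold change of the 13 was 0.22. Mdh2, the mitochondrial malate dehydrogenase, had 115, 102 and 144 CPM in LCS and 102, 71.0 and 62.7 CPM in WT. WT replicate 1 reached the level of LCS replicate 2, and the log2 fold change was 0.61 (SE 0.21, edgeR adjusted p = 0.127), or 0.85 without WT replicate 1 (SE 0.18, edgeR adjusted p = 0.0106). Fh1, fumarase, had 130, 174 and 159 CPM in LCS and 128.4, 103.9 and 104.96 CPM in WT. Its groups did not overlap, although LCS replicate 1 and WT replicate 1 were close. The log2 fold change of Fh1 was 0.46 (SE 0.16, edgeR adjusted p = 0.136), and it was 0.44 with the length offset and 0.50 with length and GC offsets, so it moved less with these offsets than Mdh2 (0.27 and 0.20) or Mpc1. Suclg1, the alpha subunit of succinyl-CoA ligase, had 55.5, 59.7 and 66.6 CPM in LCS and 51.4, 49.2 and 42.7 CPM in WT, with no overlap (log2 fold change 0.34, SE 0.14, edgeR adjusted p = 0.184). It was at 0.02 with the length offset and 0.07 with length and GC offsets.

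The other 10 genes of the cycle ranged from -0.10 to 0.34. Citrate synthase (Cs) was at -0.10, Ogdh and Dlst, the E1 and E2 of oxoglutarate dehydrogenase, at -0.08 and -0.06, and Suclg2 at 0.01. The subunits of NAD-dependent isocitrate dehydrogenase were at 0.11 (Idh3a), 0.34 (Idh3b) and 0.30 (Idh3g, without overlap between the groups), the NADP-dependent Idh2 at 0.23, Sucla2 at 0.22 and the cytosolic malate dehydrogenase Mdh1 at 0.15. The standard errors of these genes were 0.13 to 0.18. With the length offset Idh3b was at 0.06 and Idh3g at -0.11. Summed over members, the cycle genes reached 1006 to 1100 CPM in LCS and 897 to 957 CPM in WT, and the glycolysis genes 2617 to 2980 CPM and 2014 to 2572 CPM. On this TMM scale these sums did not overlap between the genotypes, and they were carried by a few abundant genes, Aldoa and Pkm for glycolysis. As a share of counts outside the ribosomal rows, the 37 genes together did overlap. They held 0.643%, 0.640% and 0.597% in LCS and 0.657%, 0.522% and 0.552% in WT. The pyruvate entry sums overlapped, at 249 to 317 CPM in LCS and 248 to 261 CPM in WT.

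**Figure D5:**
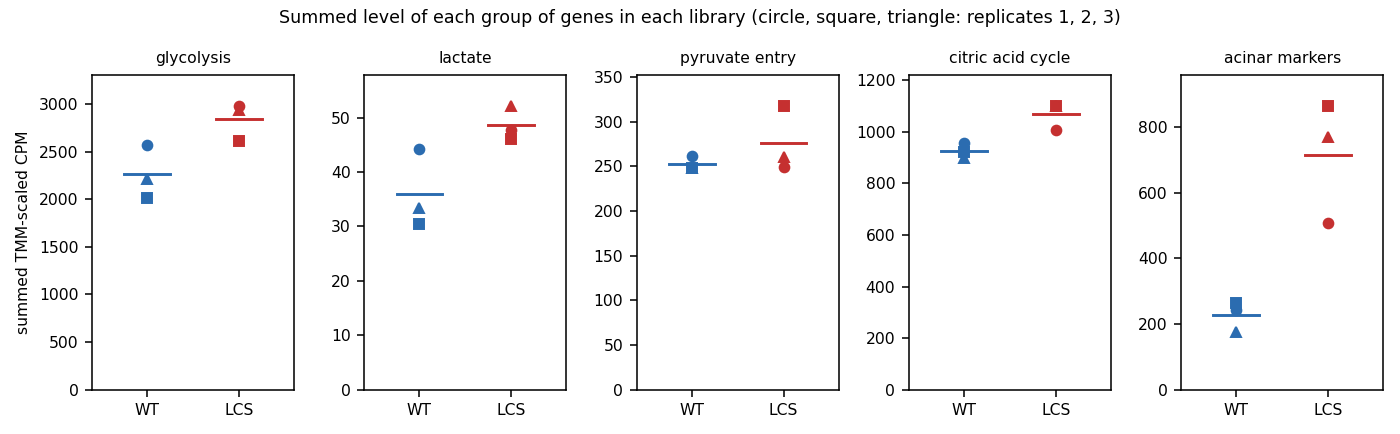
Summed TMM-scaled CPM of the tested members of each step, and of acinar markers for comparison, in each library, where bars are means of 3 libraries; each panel has its own axis from 0. Glycolysis sums are 2617 to 2980 CPM in LCS and 2014 to 2572 CPM in WT, a narrower gap than that of the acinar markers (508 to 865 CPM and 174 to 265 CPM).

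Of 57 other genes of the same pathways, 55 were tested: 1 was called higher and none lower, against 2.06% and 0.144% of all genes. Their median log2 fold change was -0.04. The gene called was Sdhb, the iron-sulphur subunit of succinate dehydrogenase, which had 64.3, 65.4 and 74.5 CPM in LCS and 43.4, 39.7 and 30.6 CPM in WT (log2 fold change 0.84, SE 0.16, edgeR adjusted p = 0.0309). It was called in 9 of 16 alternatives and lost its call in 7, including both fits with offsets (0.36 and edgeR adjusted p = 0.237 for length) and the fits that left out a library other than WT replicate 1. The other subunits were at -0.10 (Sdha), 0.11 (Sdhc) and 0.22 (Sdhd). Pfkfb2, which makes the activator of phosphofructokinase, had 108, 123 and 68.5 CPM in LCS and 135, 221 and 233 CPM in WT, with no overlap. The log2 fold change of Pfkfb2 was -0.97 (SE 0.26, edgeR adjusted p = 0.0761), it was -1.04 and -0.97 with the 2 length offsets, and it was called lower in 4 of 16 alternatives. Bsg, basigin, the partner that carries monocarboxylate transporters to the membrane, had 330, 378 and 367 CPM in LCS and 303, 166 and 156 CPM in WT (log2 fold change 0.79, SE 0.24, edgeR adjusted p = 0.106). Bsg was called higher in 3 of 16 alternatives, among them without WT replicate 1 (1.16, edgeR adjusted p = 0.00129), and was at 0.44 with the length offset and 0.37 with length and GC offsets. Slc25a11, the mitochondrial oxoglutarate carrier, had 33.4, 31.6 and 35.8 CPM in LCS and 27.6, 21.7 and 20.4 CPM in WT (log2 fold change 0.53, SE 0.16, edgeR adjusted p = 0.102), again with no overlap. Slc25a11 was called in 2 of 16 alternatives and was at 0.29 and 0.23 with these offsets.

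The glucose transporter gene Slc2a2 had 154, 183 and 88.1 CPM in LCS and 176, 272 and 274 CPM in WT, where LCS replicate 2 lay above WT replicate 1 (log2 fold change -0.77, SE 0.27, edgeR adjusted p = 0.134). Slc2a2 was called lower in 2 of 16 alternatives, with DESeq2 (adjusted p = 0.0411) and without WT replicate 1 (-0.95, edgeR adjusted p = 0.0246). It was at -0.56 with the length offset and -0.37 with length and GC offsets. Pcx, pyruvate carboxylase, which feeds pyruvate into the cycle as oxaloacetate, had 90.2, 85.3 and 86.0 CPM in LCS and 99.8, 87.5 and 72.1 CPM in WT, and its log2 fold change was 0.01 (SE 0.15, edgeR adjusted p = 0.970). Pdk2, a kinase that inactivates pyruvate dehydrogenase, had 9.30, 7.35 and 8.87 CPM in LCS and 7.53, 6.81 and 5.07 CPM in WT (log2 fold change 0.39, SE 0.21, edgeR adjusted p = 0.275). Pdp2, a phosphatase that reactivates it, had 5.03, 6.11 and 4.88 CPM in LCS and 6.18, 8.04 and 10.1 CPM in WT (log2 fold change -0.60, SE 0.22, edgeR adjusted p = 0.151). Its groups did not overlap, though LCS replicate 2 and WT replicate 1 were close, and Pdp2 was called lower in 1 of 15 alternatives, without WT replicate 1 (-0.76, edgeR adjusted p = 0.0261). With the length offset Pdp2 was at -0.36 and Pdk2 at 0.30. With length and GC offsets they were at -0.34 and 0.14.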

How the data were processed

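The authors deposited 1 table of 24407 genes that holds unnormalised whole-number counts. Per the labels, RNA was extracted with TRIzol, was poly(A) RNA, and was sequenced from stranded TruSeq libraries. TopHat2 2.1.1, HTSeq 0.9.0, Bowtie2 2.2.9, FastQC, bcl2fastq 2.20 and mm9 appear, without roles, per the submitters' processing notes. The sources used here do not give the gene annotation, the strand setting or the handling of reads that map to several copies.

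Replicates were numbered in accession order and do not pair samples. The test was edgeR 4.0.16 under R 4.3.3 (quasi-likelihood test, filterByExpr, TMM, genotype as the only term, all 6 libraries, Benjamini-Hochberg over 14539 genes, threshold 0.05). CPM values are TMM-scaled. Transcript length and GC content are the median of the GENCODE M21 transcripts with a RefSeq match, or of other transcripts where there was none, and 95.2% of tested genes had one. Loess offsets had a span of 0.5. DESeq2 1.42.0 and limma-voom (limma 3.58.1) were alternatives. Figures were drawn with matplotlib 3.10.9.

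The members and lists (other pathway genes, cell markers, genes disallowed in beta cells, hypoxia response) were chosen with earlier results of these data known. Values of all 6 libraries were given for members called, the 3 members of each step with the smallest p, Ldha, Slc16a1, Hk1 and Gapdh, and for Slc2a2, Pcx, called genes and the 2 with the smallest p in each group of other pathway genes, except for a result that is not reported here. In simulated counts of 14539 genes, 8.00%, 48.3% and 88.0% of genes changed 1.5-fold, 2-fold and 4-fold were called, and 9.62% of called genes were unchanged, so differences near 1.5-fold were mostly not detectable. Of the 36 tested members 34 had at least 200 counts in every library.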

Additional observations from a re-analysis of the deposited data

How the results depend on the processing

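Across the alternatives, the number of members called higher was 0 in the test of all libraries, 2 with DESeq2, 1 without a low-count filter (Mpc2) and 1 without WT replicates 1 and 2, and it ranged from 0 to 8 when single libraries were left out. The number called lower was 0 and ranged from 0 to 1. Only leaving out WT replicate 1 gave 8 and 1. The members' median log2 fold change was 0.0551 with the length offset and 0.0828 with length and GC offsets, against 0.20, and by construction these offsets remove what goes with length or GC content. Other pathway genes called higher were 1, but 3 with DESeq2, 2 without WT replicates 1 and 2, 0 with each of the length offsets and 0 to 6 without single libraries. Those called lower were 0, but 2 with DESeq2, 1 without a low-count filter, 1 without WT replicates 1 and 2, and 0 to 4 without single libraries. Over all genes, 300 were higher and 21 lower. These became 937 and 571 with DESeq2, 560 and 126 without a low-count filter, 884 and 331 without WT replicates 1 and 2, 24 and 3 with the length offset (225 and 14 for the same protein-coding genes with no offset, added after the data were seen), 87 and 43 with length and GC offsets, and 81 to 1857 and 1 to 1142 without single libraries. Higher genes were 93.5% of the calls, 62.1% with DESeq2 and 61.9% without WT replicate 1. The cause of these shifts was not tested. The median of all genes stayed between -0.01 and 0.05. Of the 36 tested members, 13 had the other sign in at least 1 alternative (Hk1, Hk2, Gapdh, Pgk1, Pkm, Ldhb, Slc16a1, Pdha1, Idh2, Idh3g, Ogdh, Dlst and Suclg2), none of them called. Slc16a1 turned to 0.28 without WT replicates 1 and 2, 0.10 with length and GC offsets and 0.12 without WT replicate 1 (-0.387 to 0.121 without single libraries). Ldhb turned to -0.36 with the length offset, -0.37 with length and GC offsets and -0.0491 without LCS replicate 3 (up to 0.247). Hk1 turned to -0.02 without LCS replicate 1, -0.0289 without WT replicate 2 and -0.0046 without WT replicate 3 (up to 0.263). Gapdh turned to -0.0262 with length and GC offsets. Pcx turned to -0.01 with DESeq2 size factors and in the DESeq2 test (-0.0098 and -0.0099), -0.0686 with length and GC offsets and -0.105 without WT replicate 3 (up to 0.129). The LCS minus WT difference in share was 7.77 percentage points for Pfkl and 5.81 for Ldha, 7.79 and 4.95 from raw counts, and 5.15 to 10.8 and 3.01 to 8.72 without single libraries. The shares themselves depend on the scale: Ldha in LCS was at 82.3% per kilobase and 85.8% from raw counts. No paired analysis was possible because the labels give no replicate numbers shared between genotypes.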

Other observations

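Genes that beta cells are known to keep low, a list of 24 that holds Ldha, Slc16a1 and Hk1, had no member called in either direction. An unadjusted p under 0.05 was reached by 1 higher and 3 lower genes, against 13.3% and 10.8% of all genes. Its median log2 fold change was 0.05. The list summed to 154 to 160 CPM in LCS and 134 to 199 CPM in WT, and its highest value was WT replicate 1. The interleukin 6 receptor gene Il6ra had 27.7, 30.7 and 18.7 CPM in LCS and 33.2, 41.6 and 44.3 CPM in WT, without overlap, at a log2 fold change of -0.63 (SE 0.20, edgeR adjusted p = 0.117). Smad3, a transducer of TGF-beta signals, had 4.68, 4.498 and 3.86 CPM in LCS and 8.84, 5.06 and 5.80 CPM in WT (-0.60, SE 0.25, edgeR adjusted p = 0.180). Both were named after their values were seen. The groups did not overlap, with LCS lower, for 12% of all genes tested. The transcripts of Il6ra (5991 nt) and Smad3 (5090 nt) lie in the class over 4000 nt, which had a median log2 fold change of -0.24. The part of transcript length in their values was not tested.

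Of 16 hypoxia response genes outside the pathway 15 were tested and none was called. An unadjusted p under 0.05 was reached by 3 higher and 2 lower genes, against 13.3% and 10.8% of all genes. The median log2 fold change of the 15 was 0.06. Named after their values were seen, the cytokine gene Mif had 151, 128 and 160 CPM in LCS and 96.5, 53.0 and 45.0 CPM in WT (log2 fold change 1.18, SE 0.26, edgeR adjusted p = 0.0517), and the mitochondrial protein gene Higd1a 23.0, 16.9 and 24.2 CPM against 11.0, 12.6 and 13.2 CPM (0.80, SE 0.18, 0.0531). Neither overlapped between the genotypes. The remaining higher gene at an unadjusted p under 0.05, Ankrd37, was at 0.80 (SE 0.20, edgeR adjusted p = 0.0648), also without overlap. The Mif transcript has 544 nt and that of Ankrd37 927 nt, and protein-coding genes of 500 to 1000 nt had a median log2 fold change of 0.69. That of Higd1a has 2232 nt, in a class with a median of -0.01. The part of transcript length in these values was not tested. In the same list Vegfa, the vascular growth factor gene, had 261, 210 and 206 CPM in LCS and 288, 315 and 311 CPM in WT (-0.44, SE 0.15, edgeR adjusted p = 0.130), and Ero1l, an oxidase for disulphide bonds, was at -0.63 (SE 0.21, edgeR adjusted p = 0.123), so members of this list lay on either side of 0. The Ero1l transcript has 4418 nt, in a class with a median of -0.24, and the part of length in its value was not tested.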
